A study of Rattus norvegicus with 8 samples.

Results

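The mitosis genes are a list of 54 genes that act in G2 phase and mitosis, chosen by function. A gene was measured where the array's annotation gave it a probe set that carries its symbol alone, and where several did, the one with the highest mean level was used. Of the 54 genes, 46 were measured, among 14217 genes with a probe set of their own. Cdc25c, Nek2, Ndc80, Kif4a, Tpx2 and Ncapg had no probe set under their symbol, and Ckap2 and Anln shared theirs with another gene.

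The cells were primary chondrocytes, the cells that make and keep cartilage, from the femoral condyles of neonatal Sprague Dawley rats aged 1 day. They were grown on plastic to confluence, kept overnight in medium free of serum, and given either U0126 or its solvent DMSO. TNFα (30 ng/ml) or its carrier, bovine serum albumin (BSA), was added 30 min later and left for 24 h. The groups were U0126 then TNFα (called U0126 and TNFα here), DMSO then TNFα (called TNFα), U0126 then BSA (called U0126), and DMSO then BSA (called DMSO), with 2 biological replicates each and 1 Affymetrix array per culture, 8 arrays in all. The replicate number was read as the number of the experiment. U0126 inhibits MEK1 and MEK2, the kinases that switch on ERK1 and ERK2, and TNFα is an inflammatory cytokine. The series asks which effects of TNFα on chondrocyte mRNA need MEK and ERK, and what the inhibitor does without TNFα.

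Mitosis gene transcripts follow the cell cycle. They are low in resting and G1 cells, are made as a cell passes from S phase into G2, and are removed after division. A group of promoter elements shared by many of them, the CHR (cell cycle genes homology region) and CCAAT boxes, binds complexes that hold the genes silent in resting cells and activate them in G2. In most cell types, growth factors acting through ERK raise the D-type cyclins that carry a cell out of G1, and mitosis genes follow later. In growing cartilage the flat columnar chondrocytes divide, and chondrocytes of adult articular cartilage rarely do.

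Each array gives 1 linear intensity per probe set, with no read depth, so precision rests on how many arrays there are. The array medians lay between 365.1 and 378.2. Markers of chondrocytes and of fibroblasts were both present on every array. The summed intensity of 9 measured chondrocyte markers (type II collagen, aggrecan, Sox9 and others) was between 94940 and 193500 per array, against 98020 to 137800 for 8 fibroblast markers, 3314 to 5279 for 11 macrophage and leukocyte markers and 767.4 to 1178 for 6 endothelial markers. Levels of different probe sets cannot be set against each other, so the sums serve only to compare arrays. Of 17 measured outputs of ERK, 4 were called lower with U0126, on average over cells without and with TNFα (0.309% of all probe sets). At an unadjusted p under 0.05, 10 were lower (7.17% of all probe sets), and the median over the 17 was 0.88-fold. Egr1 fell to 0.39-fold (limma adjusted p = 0.00955), Etv5 to 0.42-fold (0.0249), Egr2 to 0.56-fold (0.00703) and Dusp6 to 0.63-fold (0.023).

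The promoters of the members were read first, since the choice of genes did not use sequence. RefSeq (rat assembly GRCr8) gave a promoter, from 250 bases before to 50 bases after the start, for 39 of the 46 measured genes. The other 7 were Aurkb, Ccna2, Cdca2, Foxm1, Incenp, Racgap1 and Ube2c. Both strands were searched for TTTGAA, the core of the CHR, and for CCAAT, the box bound by NF-Y. TTTGAA was present in 27 of 39 promoters (69.2%), against 18.3% of all 33469 promoters in the table. CCAAT was present in 30 of 39 (76.9%), against 37.5% of all promoters, and both were present in 23 of 39 (59.0%), against 7.41%. A match is a description of the letters and not evidence that a protein binds.

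The RefSeq windows that follow, 4 with both motifs and 1 with neither, are shown because these genes carry the values described below. In each line the capitals mark TTTGAA or CCAAT, or their complement TTCAAA or ATTGG, 5′ to 3′ on the strand of the gene. Cdk1 is the kinase that drives entry into mitosis, Ccnb2 is cyclin B2, one of its partners, Mki67 is the Ki-67 protein that coats mitotic chromosomes, Plk1 and Aurka are kinases of the mitotic spindle.
Cdk1 (chr20:19265043-19265342, plus strand): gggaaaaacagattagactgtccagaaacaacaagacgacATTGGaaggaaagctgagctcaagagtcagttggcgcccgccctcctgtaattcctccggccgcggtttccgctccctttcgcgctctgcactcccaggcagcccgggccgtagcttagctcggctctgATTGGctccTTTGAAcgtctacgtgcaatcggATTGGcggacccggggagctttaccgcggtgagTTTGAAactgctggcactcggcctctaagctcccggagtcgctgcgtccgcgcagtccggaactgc
Ccnb2 (chr8:79981609-79981908, minus strand): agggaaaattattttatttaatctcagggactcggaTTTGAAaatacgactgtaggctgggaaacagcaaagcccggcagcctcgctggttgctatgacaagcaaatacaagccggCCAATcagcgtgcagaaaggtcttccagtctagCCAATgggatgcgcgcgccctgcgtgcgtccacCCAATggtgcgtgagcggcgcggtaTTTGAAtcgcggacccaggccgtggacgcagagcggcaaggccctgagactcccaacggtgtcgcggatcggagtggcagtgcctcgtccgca
Mki67 (chr1:199952544-199952843, minus strand): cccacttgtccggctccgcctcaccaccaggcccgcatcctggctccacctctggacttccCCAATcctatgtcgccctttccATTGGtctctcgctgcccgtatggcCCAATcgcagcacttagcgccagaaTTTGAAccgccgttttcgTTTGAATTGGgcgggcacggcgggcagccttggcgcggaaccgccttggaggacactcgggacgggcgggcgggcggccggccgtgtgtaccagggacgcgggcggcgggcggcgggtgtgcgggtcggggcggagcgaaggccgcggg
Plk1 (chr1:186147408-186147707, plus strand): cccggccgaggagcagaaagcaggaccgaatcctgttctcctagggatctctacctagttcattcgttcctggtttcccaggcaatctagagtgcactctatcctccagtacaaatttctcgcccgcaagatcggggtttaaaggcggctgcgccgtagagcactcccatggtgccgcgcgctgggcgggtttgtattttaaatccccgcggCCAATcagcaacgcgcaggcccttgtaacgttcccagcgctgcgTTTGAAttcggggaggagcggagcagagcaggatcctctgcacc
Aurka (chr3:181560720-181561019, minus strand): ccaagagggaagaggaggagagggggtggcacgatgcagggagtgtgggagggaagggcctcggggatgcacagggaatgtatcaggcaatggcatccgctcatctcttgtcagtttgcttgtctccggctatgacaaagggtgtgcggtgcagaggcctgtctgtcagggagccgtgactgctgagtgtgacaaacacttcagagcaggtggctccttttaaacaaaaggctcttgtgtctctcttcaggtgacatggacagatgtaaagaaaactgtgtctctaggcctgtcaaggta
The Cdk1 and Ccnb2 promoters hold 2 copies of TTTGAA and 3 of CCAAT each, on either strand. Mki67 holds 2 and 4, and its second TTTGAA shares a base with an ATTGG, so that a single run of capitals covers both. Plk1 holds 1 of each. The Aurka window holds neither, as did those of Bub1, Kif2c, Melk and Ncaph, and no match says only that these letters are absent from the window.

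**Figure D1:**
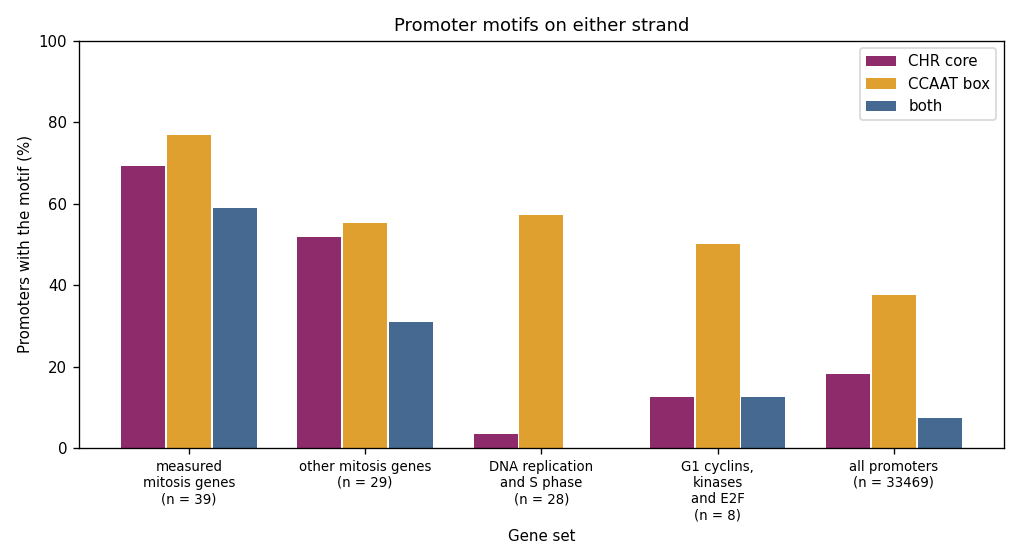
Share of RefSeq promoters (%) that hold TTTGAA (CHR core), CCAAT or both on either strand, for the 39 matched mitosis genes, 29 other mitosis genes, 28 genes of DNA replication and S phase, 8 genes of G1 and all 33469 promoters. The mitosis genes hold both motifs in 59.0% of promoters, the S phase genes in 0.0%.

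The other gene lists hold the elements in different proportions. Of 29 promoters of further mitosis genes that are not among the 54, 51.7% held TTTGAA, 55.2% CCAAT and 31.0% both. Of 28 promoters of DNA replication and S phase genes, 57.1% held CCAAT, 3.57% TTTGAA and 0.0% both.

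Taken over all 46 genes, mitosis transcripts were lowest with U0126 and highest with TNFα. The geometric mean of their intensities was 922.9 and 866.4 with U0126 and TNFα (experiments 1 and 2), 1007 and 1404 with TNFα, 788.4 and 673.9 with U0126, and 968.3 and 935.0 with DMSO. U0126 alone was thus at 0.81 and 0.72-fold of DMSO, and the DMSO arrays lay close together. TNFα was at 1.04 and 1.50-fold of DMSO, so the difference lay almost wholly in experiment 2. U0126 and TNFα stood at 0.95 and 0.93-fold of DMSO. In a bulk culture, fewer dividing cells and less mitosis RNA per cell cannot be told apart.

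**Figure D2:**
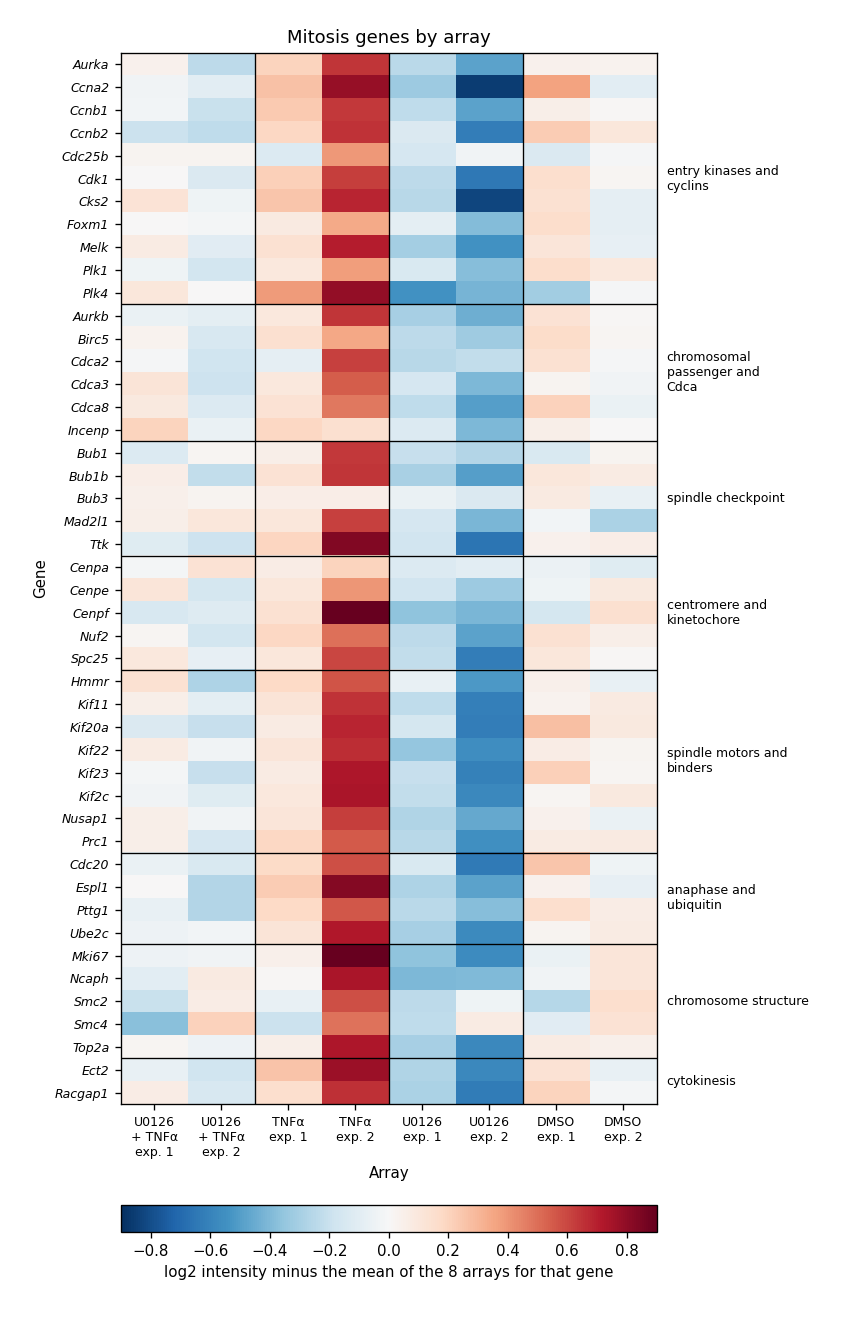
Log2 intensity of each of the 46 mitosis genes (down, by role) on each of the 8 arrays (across), minus that gene's mean over the 8 arrays, with red above and blue below. The TNFα array of experiment 2 is the highest for 44 genes and the U0126 array of experiment 2 the lowest for 39.

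The order of the arrays recurred gene by gene. The lowest of the 8 arrays was U0126 of experiment 2 for 39 of 46 genes, against 12.1% of all probe sets, and the highest was TNFα of experiment 2 for 44, against 11.7%. Both held for 37 genes, against 1.32% of all probe sets. Incenp and Bub3 were the exceptions at the top. At the bottom the exceptions were Cdc25b, Plk4, Cdca2, Cenpa, Smc2, Smc4 and Ncaph.

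The first comparison was what MEK inhibition does without TNFα. All 46 genes averaged lower with U0126 than with DMSO (50.8% of all probe sets did), with a median log2 difference of −0.44 (0.74-fold), while the median of all 31042 probe sets was −0.002. The median fold was 0.80 in experiment 1 and 0.71 in experiment 2. In both experiments 44 of 46 genes were lower (31.6% of all probe sets were), and in 40 both U0126 arrays read below both DMSO arrays (18.0% of all probe sets did). None passed limma's test at an adjusted p of 0.05, the lowest adjusted p being 0.273, and 0.0% of all probe sets were called lower in this comparison. At an unadjusted p under 0.05, 26 of 46 genes were lower, against 6.22% of all probe sets. By the study's fold rule, which asks for 1.45-fold or more one way in each experiment, 1 gene qualified, Ccna2 (0.11% of all probe sets). Without the U0126 array of experiment 2 the median log2 difference was −0.24.

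The second comparison was the same inhibitor in cells given TNFα. All 46 genes averaged lower with U0126 and TNFα than with TNFα (47.1% of all probe sets did), with a median log2 difference of −0.42 (0.75-fold), against 0.01 for all probe sets. The experiments differed in size, with a median fold of 0.92 in experiment 1 and 0.60 in experiment 2. In both experiments 41 of 46 genes were lower (28.6% of all probe sets), and in 37 the groups did not overlap (13.0%). None passed limma's test (lowest adjusted p = 0.147), against 0.126% of all probe sets called lower, and 24 had an unadjusted p under 0.05, against 6.79%. By the fold rule 0 genes qualified, against 0.506% of all probe sets. The size rested on the TNFα arrays: the median log2 difference was −0.10 without the TNFα array of experiment 2 and −0.76, with 1 gene called lower (0.029% of all probe sets), without that of experiment 1.

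The mean of both inhibitor effects set 4 arrays with U0126 against 4 without, and all 46 genes were below 0 (51.5% of all probe sets). The median log2 difference was −0.44, from −0.66 for Ccna2 to −0.05 for Cenpa, against −0.003 for all probe sets. In all 4 matched pairs of arrays, 39 of 46 genes were lower with U0126 (10.5% of all probe sets). The 7 that were not were Cdc25b, Incenp, Cdca3, Cdca2, Cenpa, Cenpe and Smc2. None was called by limma, with the lowest adjusted p at 0.0856 for Plk4, against 0.309% of all probe sets called lower, and 41 had an unadjusted p under 0.05, against 7.17%. Here too a single array moved the count: without the TNFα array of experiment 1, 35 of 46 genes were called lower (0.567% of all probe sets), without that of experiment 2, 2 were (0.963%) and the median was −0.27, and without any 1 of the other 6 arrays, 0 were.

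**Figure D3:**
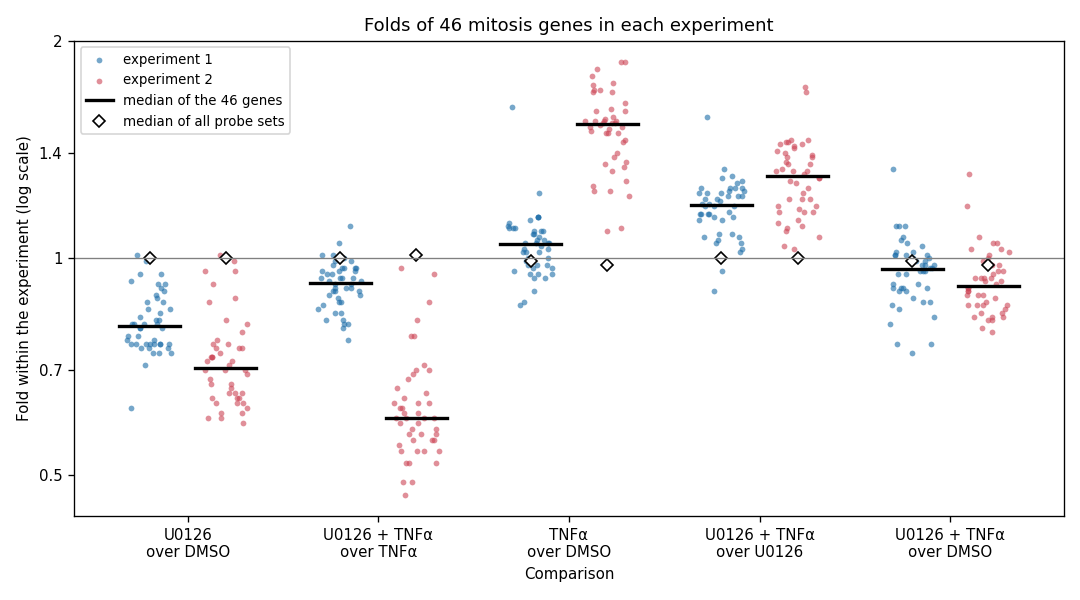
Fold within each experiment (log axis) for the 46 mitosis genes (points) in 5 comparisons, experiment 1 in blue and experiment 2 in red, with the median of the genes (bar) and of all probe sets (diamond). U0126 over DMSO has medians of 0.80 and 0.71, and TNFα over DMSO 1.04 and 1.53.

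TNFα was then set against DMSO. All 46 genes averaged higher (44.9% of all probe sets), with a median log2 difference of 0.32 (1.25-fold), against −0.02 for all probe sets. The median fold was 1.04 in experiment 1, where 16 genes read below DMSO, and 1.53 in experiment 2, where none did, and the fold was larger in experiment 2 for 46 of 46 genes. In both experiments 30 genes were higher (30.0% of all probe sets), and in 25 both TNFα arrays read above both DMSO arrays (15.1%). Of the 46, 1 gene, Plk4, passed limma's test, against 3.41% of all probe sets called higher, and it was also the 1 gene past the fold rule (1.65%). At an unadjusted p under 0.05, 9 of 46 genes were higher, against 12.4% of all probe sets. Without the TNFα array of experiment 2 the median log2 difference was 0.01, and without that of experiment 1 it was 0.65, with 25 genes called higher (1.86% of all probe sets).

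With the inhibitor present in both groups, TNFα gave a more even picture. U0126 and TNFα was above U0126 in 45 of 46 genes on average (47.6% of all probe sets), with Smc4 at a log2 difference of −0.01, and the median was 0.29 (1.22-fold), against −0.01 for all probe sets. The median fold was 1.19 in experiment 1 and 1.3 in experiment 2. In both experiments 44 genes were higher (29.4% of all probe sets), and in 36 the groups did not overlap (13.3%). None was called (lowest adjusted p = 0.108, limma), against 0.831% of all probe sets called higher, and 5 had an unadjusted p under 0.05, against 5.79%. By the fold rule 0 genes qualified, against 0.905% of all probe sets. In all 4 matched pairs of arrays, 30 genes were higher with TNFα than without it (14.9% of all probe sets). The median was 0.13 without the U0126 array of experiment 2 and 0.46 without that of experiment 1, and 3 genes were called higher when either TNFα array was left out of the fit (1.2% of all probe sets).

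The inhibitor's effect was not shown to differ between cells with and without TNFα. The 2 experiments went opposite ways. The median U0126 fold was 0.80 without TNFα and 0.92 with it in experiment 1, and 0.71 and 0.60 in experiment 2. The interaction, which averages the experiments, had a median log2 value of 0.005, from −0.30 for Espl1 to 0.19 for Incenp. None of the 46 genes was called (lowest adjusted p = 0.628, limma), 0 had an unadjusted p under 0.05 (4.3% of all probe sets did above 0 and 4.82% below), and 0.0% of all probe sets were called in either direction. Each inhibitor effect shares arrays with each TNFα effect, so the values of the inhibitor and of TNFα are set side by side and not correlated.

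Cells given both agents were close to the DMSO cultures. This comparison was added after the values were seen. The median log2 difference of U0126 and TNFα from DMSO was −0.10 (0.94-fold), with 38 genes below 0 (54.4% of all probe sets) and median folds of 0.97 and 0.92 in experiments 1 and 2. In both experiments 26 genes were lower (36.5% of all probe sets) and 5 higher, which were Cdc25b, Plk4, Mad2l1, Cenpa and Nusap1 (29.1%). None was called in either direction by limma, against 0.954% of all probe sets called lower and 2.17% called higher, and 0 had an unadjusted p under 0.05, against 10.8% lower and 11.6% higher among all probe sets.

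The genes are described next by role, beginning with the kinases and cyclins that start mitosis. Of 11 measured, 10 were lower with U0126 at an unadjusted p under 0.05 over the 4 pairs, with a median log2 difference of −0.46, and 0 were called. For this role and each role below, the shares to set beside these counts are 7.17% and 0.309% of all probe sets. Ccna2, cyclin A2, binds Cdk2 and Cdk1 in S and G2 phase. It read 1138 and 1093 with U0126 and TNFα, 1400 and 2008 with TNFα, 928.2 and 643.5 with U0126, and 1495 and 1094 with DMSO (probe set 1379582_a_at). Both U0126 arrays were below both DMSO arrays, at 0.62 and 0.59-fold of the DMSO array of the same experiment, and the log2 difference averaged over both settings was −0.66 ± 0.16 (SE, limma adjusted p = 0.135).

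Cdk1 read 2195 and 1996 with U0126 and TNFα, 2536 and 3363 with TNFα, 1853 and 1397 with U0126, and 2423 and 2214 with DMSO (probe set 1367776_at). The groups did not overlap in either inhibitor comparison, and the averaged log2 difference was −0.50 ± 0.12 (SE, limma adjusted p = 0.124). Ccnb1, cyclin B1, the main partner of Cdk1, read 1151 and 1018 with U0126 and TNFα, 1374 and 1816 with TNFα, 999.4 and 839.1 with U0126, and 1214 and 1180 with DMSO. Its averaged U0126 fold was 0.72 (adjusted p = 0.112). Cks2, a small protein that binds cyclin-dependent kinases and helps them engage their substrates, had the widest response to TNFα under the inhibitor: 1761 and 1578 with U0126 and TNFα, 1924 and 2596 with TNFα, 1360 and 914.4 with U0126, and 1783 and 1528 with DMSO. The log2 difference of U0126 and TNFα over U0126 was 0.58 ± 0.20 (SE, adjusted p = 0.305). Ccnb2, whose promoter is printed above, had an averaged U0126 fold of 0.66 (adjusted p = 0.116).

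Plk4, the kinase that starts the copying of centrioles, differed from its neighbours in the list. It read 680.0 and 635.6 with U0126 and TNFα, 824.3 and 1095 with TNFα, 434.5 and 472.4 with U0126, and 509.9 and 628.4 with DMSO (probe set 1377832_at). Plk4 rose with TNFα in both experiments, by 1.62 and 1.74-fold, a log2 difference of 0.75 ± 0.12 (SE, limma adjusted p = 0.0197). It is the single member with a TNFα fold over 1.45 in experiment 1, where the other 45 lay between 0.86 and 1.23-fold. The call was lost when either DMSO array was left out (adjusted p = 0.0896 and 0.0664), without the TNFα array of experiment 2 (0.0627), and in a fit without the experiment as a block (0.27). With U0126 in both groups the fold was 1.57 and 1.35 (log2 0.54 ± 0.12, adjusted p = 0.108).

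Plk1, which acts from mitotic entry to cytokinesis, gave one of the smaller TNFα responses. It read 1181 and 1083 with U0126 and TNFα, 1301 and 1579 with TNFα, 1104 and 932.4 with U0126, and 1356 and 1299 with DMSO. U0126 stood at 0.81 and 0.72-fold of DMSO with no overlap, while its TNFα folds were 0.96 and 1.22. Aurka, the kinase that ripens centrosomes, read 326.5 and 269.3 with U0126 and TNFα, 364.7 and 495.8 with TNFα, 268.4 and 227.7 with U0126, and 325.4 and 324.9 with DMSO. Its DMSO arrays differed by less than 1 unit, and both U0126 arrays lay below them.

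Foxm1, a transcription factor that binds together with the CHR complexes and activates G2 and mitosis genes, ran the same way with a smaller difference. Its averaged U0126 log2 difference was −0.25, against a median of −0.44 for the list. It read 585.7 and 578.9 with U0126 and TNFα, 618.0 and 740.4 with TNFα, 549.3 and 447.3 with U0126, and 652.1 and 552.2 with DMSO. The U0126 arrays were below both DMSO arrays, by a narrow margin, and the averaged fold was 0.84 (adjusted p = 0.268). Cdc25b, a phosphatase that activates Cdk1 and Cdk2, was the member of this role with the smallest U0126 difference, at an averaged log2 value of −0.06 (adjusted p = 0.758). Melk, a kinase raised in dividing cells, had an averaged fold of 0.74 (adjusted p = 0.191).

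**Figure D4:**
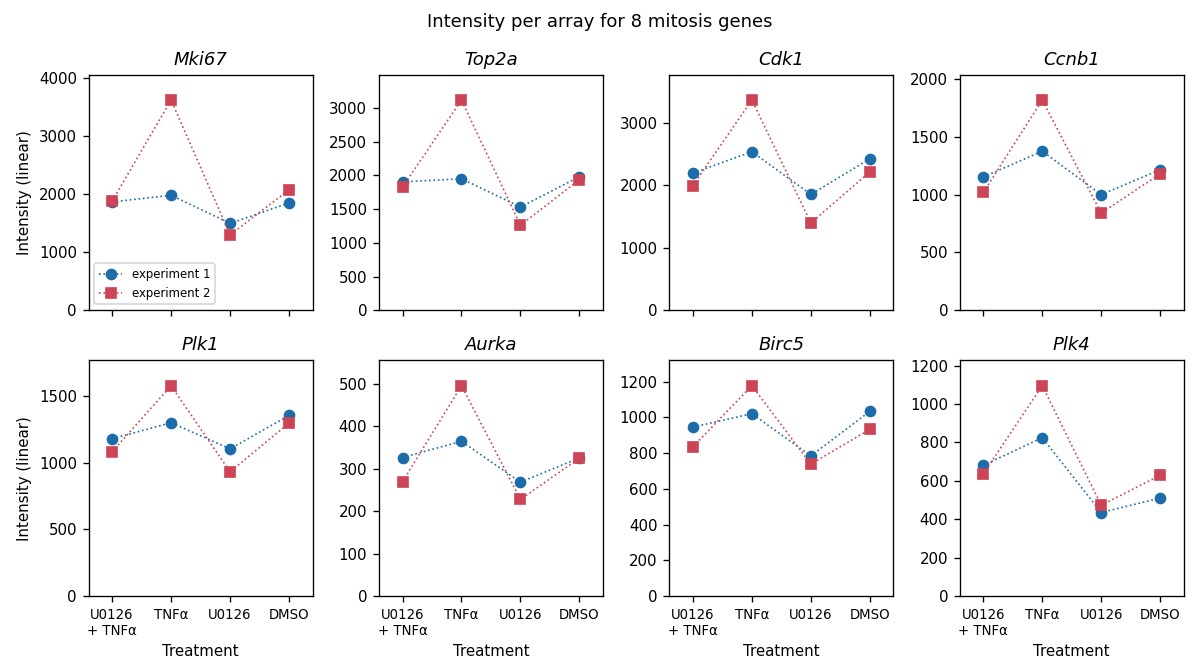
Intensity (linear, axes from 0) of 8 mitosis genes by treatment, 1 point per array, experiment 1 as circles and experiment 2 as squares, with dotted lines joining the arrays of an experiment. In all 8 panels both U0126 points lie below both DMSO points, and the TNFα point of experiment 2 is the highest.

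The chromosomal passenger complex, with Aurora B as its kinase, corrects faulty attachments of chromosomes to the spindle. This role takes in genes of the complex together with Cdca2 and Cdca3. All 6 genes of the role were lower with U0126 at an unadjusted p under 0.05, with a median averaged log2 difference of −0.33, and 0 were called. Aurkb itself read 950.7 and 930.9 with U0126 and TNFα, 1059 and 1546 with TNFα, 803.3 and 727.7 with U0126, and 1085 and 998.0 with DMSO, with U0126 at 0.74 and 0.73-fold of DMSO. Birc5, survivin, which anchors the complex, read 945.5 and 835.3 with U0126 and TNFα, 1021 and 1177 with TNFα, 784.2 and 738.5 with U0126, and 1034 and 933.0 with DMSO. It had the lowest adjusted p of the list without TNFα (log2 −0.37 ± 0.10, adjusted p = 0.273). Cdca3, a trigger of mitotic entry that acts through protein breakdown, read 2192 and 1778 with U0126 and TNFα, 2161 and 2953 with TNFα, 1824 and 1533 with U0126, and 2059 and 1987 with DMSO. With TNFα present, U0126 left Cdca3 at 1.01-fold in experiment 1 and 0.60-fold in experiment 2.

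Incenp, the scaffold of the same complex, followed another order from the rest. It read 893.0 and 748.0 with U0126 and TNFα, 888.0 and 859.9 with TNFα, 714.2 and 589.4 with U0126, and 807.5 and 779.8 with DMSO. Its highest array was U0126 and TNFα of experiment 1. The TNFα fold over DMSO was 1.10 in each experiment. Its other probe sets, which were dimmer, gave TNFα log2 differences of −0.315 and 0.223, against 0.139 on the one used. Incenp was named after its values were seen, as were the other genes below whose pattern stands apart.

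The spindle checkpoint holds cells in mitosis until every chromosome is attached. Its 5 genes had a median averaged log2 difference of −0.29, with 3 lower at an unadjusted p under 0.05 and 0 called. Bub1, a checkpoint kinase, read 843.2 and 931.2 with U0126 and TNFα, 952.8 and 1430 with TNFα, 797.8 and 766.6 with U0126, and 838.3 and 937.8 with DMSO, so that the inhibited and DMSO arrays were close together (0.95 and 0.82-fold). Bub3, which carries Bub1 and Bub1b to the kinetochore, was nearly level, at 3352 and 3302 with U0126 and TNFα, 3384 and 3388 with TNFα, 3114 and 2966 with U0126, and 3442 and 3100 with DMSO. Its averaged log2 difference was −0.07 ± 0.05 (adjusted p = 0.539). Ttk, also called Mps1, the kinase at the head of the checkpoint, had an averaged fold of 0.68 (adjusted p = 0.171). On the probe sets used, Mad2l1, which blocks Cdc20, had the largest TNFα response of this role (1.09 and 1.87-fold, adjusted p = 0.137). Its other probe sets gave TNFα log2 differences of 0.22 and 0.32, against 0.51 on the one used.

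Genes of the centromere and kinetochore, where spindle fibres attach, had a median averaged log2 difference of −0.41 over 5 genes, 4 of them with an unadjusted p under 0.05 and 0 called. Cenpf, a kinetochore protein that builds up in G2, read 951.0 and 971.9 with U0126 and TNFα, 1157 and 1984 with TNFα, 817.6 and 791.6 with U0126, and 944.1 and 1164 with DMSO. The U0126 arrays were close to each other and lay below both DMSO arrays. Spc25, of the Ndc80 complex that grips microtubules, read 1178 and 1050 with U0126 and TNFα, 1185 and 1675 with TNFα, 949.1 and 718.5 with U0126, and 1185 and 1115 with DMSO. In experiment 1, Spc25 was the same with U0126 and TNFα as with TNFα (0.99-fold). Cenpa, the histone that marks centromeres, was dim, at 76.12 to 95.23 on all 8 arrays, below the lower quartile of every array (139.6 to 146.7), and no detection calls were used to tell whether it was above background.

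The motors and bundling proteins of the spindle were lower at an unadjusted p under 0.05 in 8 of 8 genes, with a median averaged log2 difference of −0.45 and 0 called. Prc1, which bundles microtubules at the middle of the anaphase spindle, read 2285 and 1986 with U0126 and TNFα, 2512 and 3227 with TNFα, 1854 and 1508 with U0126, and 2327 and 2338 with DMSO. Its DMSO arrays were nearly equal, and U0126 stood at 0.80 and 0.64-fold of them. Kif23, a motor of the central spindle, read 1616 and 1420 with U0126 and TNFα, 1722 and 2716 with TNFα, 1422 and 1076 with U0126, and 1905 and 1659 with DMSO. Kif20a, which carries Aurora B to the midzone, had the lowest averaged fold of this role at 0.68 (adjusted p = 0.165), and Nusap1, a microtubule binder, the highest at 0.78 (adjusted p = 0.205).

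Anaphase begins when the anaphase-promoting complex (APC/C), with Cdc20, marks securin and cyclin B for breakdown. All 4 genes of this role were lower at an unadjusted p under 0.05, with a narrow range of averaged log2 differences from −0.51 for Espl1, the protease separase, to −0.47 for Ube2c, and 0 were called. Cdc20 read 1277 and 1212 with U0126 and TNFα, 1503 and 1995 with TNFα, 1212 and 858.6 with U0126, and 1584 and 1297 with DMSO. Ube2c, the ubiquitin-conjugating enzyme that works with the APC/C, read 1459 and 1478 with U0126 and TNFα, 1628 and 2481 with TNFα, 1223 and 1011 with U0126, and 1531 and 1579 with DMSO. Both genes had U0126 arrays wholly below the DMSO arrays. Pttg1, securin, which holds separase in check, had an averaged fold of 0.72 with a smaller error than most (log2 −0.48 ± 0.10, adjusted p = 0.0896).

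Genes of chromosome structure numbered 5, with a median averaged log2 difference of −0.41, 4 of them at an unadjusted p under 0.05 and 0 called. Mki67 read 1864 and 1878 with U0126 and TNFα, 1979 and 3617 with TNFα, 1494 and 1298 with U0126, and 1846 and 2073 with DMSO (probe set 1374775_at), and its averaged log2 difference was −0.50 ± 0.16 (adjusted p = 0.203). Top2a, the topoisomerase that untangles sister chromosomes, read 1905 and 1828 with U0126 and TNFα, 1951 and 3120 with TNFα, 1533 and 1261 with U0126, and 1981 and 1940 with DMSO. For both, the TNFα array of experiment 2 stood far above the other 7 arrays, which lay between 1261 and 2073. Smc2 and Smc4, the core ATPases of condensin, were near their level without the inhibitor (averaged folds 0.87 and 0.89) and were the 2 members called between experiments. Experiment 2 exceeded experiment 1 by a log2 difference of 0.45 for Smc4 (adjusted p = 0.00664) and 0.38 for Smc2 (0.0104), against 15.5% of all probe sets called higher and 15.4% called lower. For the list as a whole the median log2 difference between experiments was −0.01. It averages treatments that moved in opposite directions. From experiment 1 to 2 the geometric mean rose from 1007 to 1404 with TNFα. It fell from 788.4 to 673.9 with U0126, from 968.3 to 935.0 with DMSO, and from 922.9 to 866.4 with U0126 and TNFα.

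Cytokinesis, the final parting of the daughter cells, was represented by 2 measured genes. Ect2, which switches on RhoA at the cell equator, read 1290 and 1195 with U0126 and TNFα, 1620 and 2312 with TNFα, 1124 and 907.9 with U0126, and 1485 and 1293 with DMSO. Racgap1, its partner at the central spindle, read 2086 and 1801 with U0126 and TNFα, 2214 and 3151 with TNFα, 1635 and 1288 with U0126, and 2292 and 1973 with DMSO. Both had U0126 arrays below the DMSO arrays, with averaged folds of 0.68 for Ect2 (adjusted p = 0.119) and 0.71 for Racgap1 (adjusted p = 0.157).

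Genes with and without the motifs in their RefSeq window had similar inhibitor differences. Among the 39 genes, the median averaged log2 difference was −0.45 in 27 genes with TTTGAA and −0.42 in 12 without, −0.45 in 30 genes with CCAAT and −0.43 in 9 without, and −0.45 in 23 genes with both and −0.43 in the other 16. Cdk1, with both motifs, had an averaged fold of 0.71. Aurka, at 0.73-fold, is counted among the genes without, though its window may not be its promoter and cannot show what that promoter holds. These are descriptions and were not tested.

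Further probe sets of the same genes ran the same way. Of the 46 genes, 16 had 21 of them, and all 21 were lower with U0126 on average, with 18 higher with TNFα than with DMSO. They were dimmer, with a median intensity of 249.3 against 880.3 for the probe sets used, and their median averaged log2 difference was −0.28.

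Related lists placed the mitosis genes within the cell cycle. Of 35 further mitosis genes measured, 32 averaged lower with U0126 (51.5% of all probe sets), with a median log2 difference of −0.37. At an unadjusted p under 0.05, 25 were lower (7.17%), and 0 were called (0.309%). Among them Shcbp1, a partner of the central spindle motors, was at 0.63-fold (adjusted p = 0.116) and Cenpt, a centromere protein, at 0.69-fold (adjusted p = 0.0904). Of 30 genes of DNA replication and S phase, 28 averaged lower (51.5% of all probe sets), with a median of −0.17. In this list 12 were lower at an unadjusted p under 0.05 (7.17%), and 0 were called (0.309%). The lowest was Uhrf1, which keeps DNA methylation through replication, at 0.71-fold (adjusted p = 0.212). Without TNFα the median U0126 fold of the S phase list was 0.87 in each experiment. With TNFα present it was 1.05 in experiment 1, where 6 of 30 genes were lower (48.1% of all probe sets). In experiment 2 it was 0.77, where 29 were lower (47.4%).

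**Figure D5:**
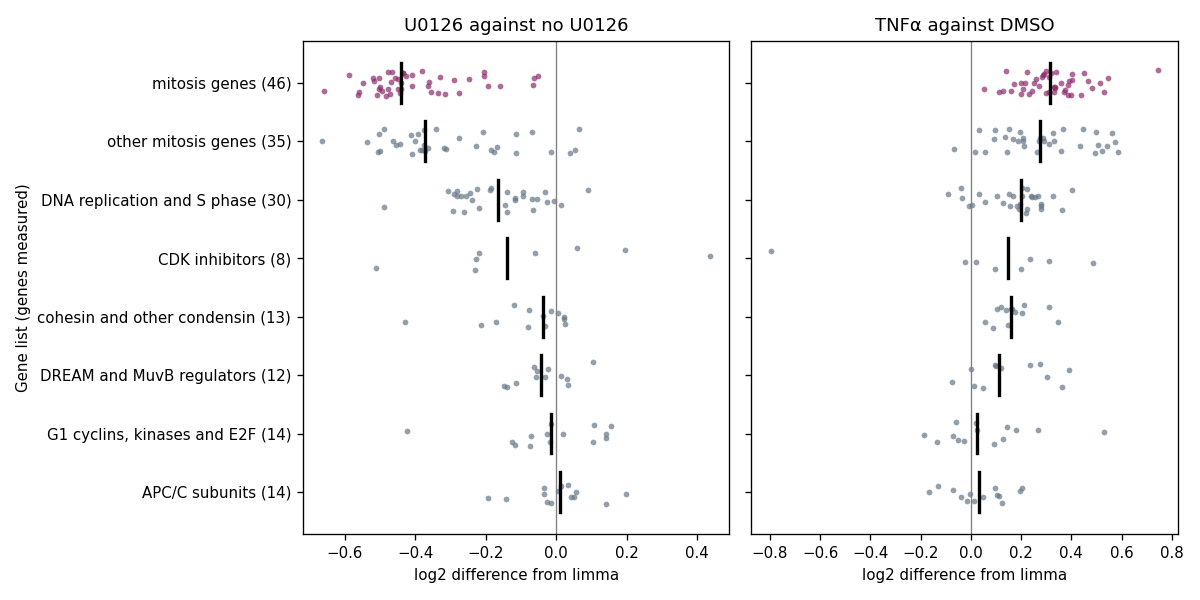
Log2 difference from limma for each gene (points) of 8 lists, with the list's median (bar), for U0126 against no U0126 over 4 pairs of arrays (left) and TNFα against DMSO (right). The 46 mitosis genes have medians of −0.44 and 0.32, the 30 S phase genes −0.17 and 0.20, and the 14 APC/C subunits 0.01 and 0.03.

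Other cell cycle lists had medians near 0 with U0126, averaged over both settings. The medians were −0.02 for 14 cyclins, kinases and E2F genes of G1, −0.04 for 12 genes of the DREAM and MuvB complexes, 0.01 for 14 APC/C subunits and −0.04 for 13 genes of cohesin and the rest of condensin, with 0 called in each. At an unadjusted p under 0.05, 1, 0, 2 and 4 were lower in the same order (7.17% of all probe sets), and 2, 0, 1 and 0 higher (8.88%). The lowest log2 difference in the cohesin and condensin list was −0.43. The G1 exception was Ccne2, cyclin E2, at 0.75-fold (adjusted p = 0.129). The 8 inhibitors of cyclin-dependent kinases had a median of −0.14 with U0126, with 5 below 0 (51.5% of all probe sets). At an unadjusted p under 0.05, 3 were lower (7.17%) and 1 higher (8.88%). The 1 called was Cdkn1c, p57, a brake on the cycle that is known in differentiating chondrocytes (0.551% of all probe sets were called higher). It rose with U0126 to 1.35-fold (limma adjusted p = 0.0353) and fell with TNFα to 0.58-fold of DMSO (adjusted p = 0.00513). Cdkn3, a phosphatase that acts on Cdk1 and Cdk2, was at 0.70-fold with U0126 (adjusted p = 0.0564).

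Cell type markers also differed between the groups. All 9 chondrocyte markers averaged lower with TNFα than with DMSO (55.1% of all probe sets did), and 6 were called lower (1.78%). All 9 averaged higher with U0126 over both settings (48.5% of all probe sets did), and 2 were called higher (0.551%). Those called were Acan at 1.35-fold (limma adjusted p = 0.0173) and Cnmd, chondromodulin, at 1.42-fold (adjusted p = 0.0246). The sum of the 9 chondrocyte markers was 180900 and 123200 with U0126 and TNFα, 142100 and 94940 with TNFα, 193500 and 135300 with U0126, and 184900 and 121900 with DMSO. All 9 were called lower in experiment 2 than in experiment 1, while 7 of 8 fibroblast markers and 6 of 11 macrophage and leukocyte markers were called higher. The fibroblast sum was 103800 and 137800 with U0126 and TNFα, 106700 and 133900 with TNFα, 101400 and 132600 with U0126, and 98020 and 129100 with DMSO, so that it differed more between experiments than between treatments. The macrophage and leukocyte sum was 3314 and 4261 with U0126 and TNFα, 4150 and 5279 with TNFα, 3442 and 4433 with U0126, and 3450 and 5021 with DMSO. The part of cell composition in the mitosis gene differences was not tested.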

How the data were processed

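Total RNA from 8 chondrocyte cultures was hybridised to 1 Affymetrix array each, and the authors deposited a linear intensity for every probe set on each array. The submitters' processing notes name RMA, which background-corrects, normalizes between arrays and combines the probes of a set. The intensities carry no detection calls, so a dim gene may sit at background, which draws its folds towards 1. Values were taken to log2 and each array was centred on its median, after the division by the chip's 50th percentile in the study's methods. Of 31099 probe sets, 57 controls were left out. The array's annotation gave 1 gene symbol to 20826, several to 436 and none to 9780, and 20758 of the first kind were found in RefSeq. Every deposited column was used.

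The 31042 remaining probe sets were fitted in limma 3.58.1 (R 4.3.3) with treatment and experiment as terms over all 8 arrays, which left 3 residual degrees of freedom, and p-values were adjusted within each comparison by Benjamini-Hochberg over all probe sets. Called means an adjusted p under 0.05. The fit was tested on simulated data. The block on experiment follows the methods, in which a treated array was divided by the DMSO array run in that experiment. With the treatment means removed, same-numbered arrays correlated at 0.728 to 0.829 between treatments over all probe sets and at 0.066 to 0.648 over the 46 members. Folds were also taken within each experiment, and the threshold of 1.45-fold in both is the study's. Nothing says whether the animals of the 2 experiments were pooled.

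The members, the gene lists and the tests were chosen with earlier results of these data known. Values per array were given for members called or past the fold rule, for Mki67, Top2a, Ccnb1, Cdk1, Foxm1, Plk1, Aurka and Birc5, and for the 2 genes of highest mean level in each role, 23 genes in all, and for Incenp, chosen after its values were seen. Members named for any other reason were chosen after their values were seen. Other lists were named by at most 3 members of smallest p, with Etv5 named beyond these as 1 of 4 ERK outputs called. Alternatives were the block, the centring, quantile normalization, a filter on dim probe sets, the median over a gene's probe sets, a trended prior, other fold thresholds and leaving out each array. Tables and figures were made with Python 3.11.15.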

Additional observations from a re-analysis of the deposited data

How the results depend on the processing

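In the 5 comparisons of treatments refitted under each alternative, named below, the medians of the 46 mitosis genes kept their direction, while that of the interaction, near 0, did not. U0126 and TNFα over DMSO and experiment 2 over experiment 1 were not among them. Without the experiment as a replicate block, 0 members were called with TNFα over DMSO, in place of 1, and 25 probe sets were called for TNFα in all. The fold rule was sensitive to its threshold. At 1.3-fold, 14 members qualified for U0126 over DMSO (0.316% of all probe sets), 1 for U0126 and TNFα over TNFα (1.19%), 1 for TNFα over DMSO (2.8%) and 3 for U0126 and TNFα over U0126 (1.6%), and at 2-fold 0 qualified for U0126 over DMSO and 0 for TNFα over DMSO. With each array left out in turn, the median log2 difference ranged from −0.76 to −0.097 for U0126 and TNFα over TNFα, from −0.585 to −0.243 for U0126 over DMSO, from −0.604 to −0.274 for the average of both, from 0.133 to 0.464 for U0126 and TNFα over U0126, from 0.008 to 0.65 for TNFα over DMSO and from −0.318 to 0.282 for the interaction. The counts of members called ranged from 0 to 1, 0 to 0, 0 to 35, 0 to 3, 0 to 25 and 0 to 0 in the same order. The arrays that set the limits of the medians were those of TNFα, or, for U0126 over DMSO and for U0126 and TNFα over U0126, those of U0126. Where any members were called, the highest count came with a TNFα array left out. The cause was not tested. With 2 cultures per treatment and the experiment as a block, p-values rest on how far the treatment differences vary between the 2 experiments. Limma moderates that spread with values from all probe sets. A dim gene such as Cenpa is limited by background.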
